A study of Mus musculus with 5 samples.

Results

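Complement and coagulation factors are plasma proteins that the liver makes and secretes. Described here are 43 of their genes, 23 of complement and 20 of coagulation and its control, in the livers of mice on a high-fat, high-fructose diet with or without all-trans retinoic acid. Members were the probes whose gene name in the array files equals one of the 43 symbols, and the brightest probe stood for a gene. This found 42 of the 43 among 28088 gene names, 22 of complement and 20 of coagulation, on 58 probes. C1ra, a serine protease of the C1 complex, was not found under that name. By its RefSeq accession it was measured by a probe that the array's design calls C1r, and its values are given apart.

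Complement tags microbes and dying cells for removal. C1q or mannose-binding lectins start it through attached proteases. C3 is the central protein, cleaved further down the cascade, and factor B and properdin amplify that cleavage. C5 to C9 then assemble into a pore in the target's membrane. Coagulation runs through zymogens that cleave each other in turn, many of which carry a vitamin K dependent modification, and ends with thrombin turning fibrinogen into fibrin. Hepatocytes are the main source of most of these proteins, whereas C1q comes mainly from macrophages, and von Willebrand factor and thrombomodulin mainly from endothelial cells.

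All mice were male C57BL/6J, a common inbred strain, and were 25 weeks old. Control mice were untreated. HFHFr-F mice received the high-fat, high-fructose diet for 20 weeks and had severe insulin resistance, per the labels. HFHFr-N mice received it for 16 weeks and then a normal diet for 4 weeks, and were insulin resistant. HFHFr-FA mice had the same 16 weeks and then 4 weeks of that diet with all-trans retinoic acid, and were not insulin resistant but had slight steatosis. HFHFr-NA mice, after those 16 weeks, ate normal diet supplemented with all-trans retinoic acid for 4 weeks and had recovered. All-trans retinoic acid is the form of vitamin A that activates the nuclear retinoic acid receptors. RNA of 5 mice was pooled for each group and hybridised to 1 array, so n is 1 pool per group, nothing here has a replicate check or a test, and "higher" and "lower" describe these pools only.

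On an array, 46.7% to 49.4% of 43379 spots other than controls exceeded background well, and none was saturated. Levels are given as scaled signal, the processed signal divided by the array's 75th percentile, and differences as its log2 ratio between arrays, in which a difference of 1 is 2-fold. The spots of replicated probes give a ratio a median error of 0.103 to 0.116 (log2, SD), which leaves out the spread between mice. Control, HFHFr-F, HFHFr-N and HFHFr-NA shared 1 slide and HFHFr-FA was alone on another, so for HFHFr-FA the slide cannot be told apart from the group. Hepatocyte markers were present: 9 of the 10 listed hepatocyte markers were named on the array, and all 9, albumin among them, were well above background on the 5 arrays. Of the members, 39 were well above background on every array, 20 of complement and 19 of coagulation, beside 12965 gene names in all. The anaphylatoxin receptor genes C3ar1 and C5ar1 were above it on none, and F13a1, the A subunit of the transglutaminase that crosslinks fibrin, on HFHFr-F alone.

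Of the 42 members, 6 were at least 2-fold apart in at least 1 of the 7 pairs of groups compared. The terminal complement genes C8b and C6 were over 2-fold lower on HFHFr-F than in control, and the A chain gene of fibrinogen was 2.10-fold higher on HFHFr-FA than on HFHFr-F. In HFHFr-F against control, 2 of the 20 measured complement members were at least 2-fold lower and 0 higher, beside 3.23% lower and 5.44% higher among 14434 measured genes. None of the 20 measured coagulation members was 2-fold apart in that pair. In HFHFr-N against control no member of either set was 2-fold apart, beside 1.17% of genes higher and 0.824% lower. C8b was the 1 member at least 2-fold higher in HFHFr-N against HFHFr-F, and none was lower (2.15% and 3.69% of genes).

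With retinoic acid on the diet (HFHFr-FA against HFHFr-F), 1 complement member, C8b, and 1 coagulation member, Fga, were at least 2-fold higher, and none was 2-fold lower, beside 2.78% of genes higher and 2.85% lower. With retinoic acid on normal diet (HFHFr-NA against HFHFr-N) no member was 2-fold apart, beside 1.53% higher and 1.35% lower. Against control, HFHFr-FA had 2 coagulation members higher, Vwf and Thbd, and 1 lower, Klkb1, and no complement member (4.52% and 1.93% of genes). HFHFr-NA had none against control (2.02% and 1.44%). With 19 or 20 measured members a set, counts of 0 to 2 past 2-fold in a direction are too few to be read as above or below those shares. HFHFr-F and HFHFr-N each serve in several of these pairs, and control in 4, so the comparisons are not independent.

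**Figure D1:**
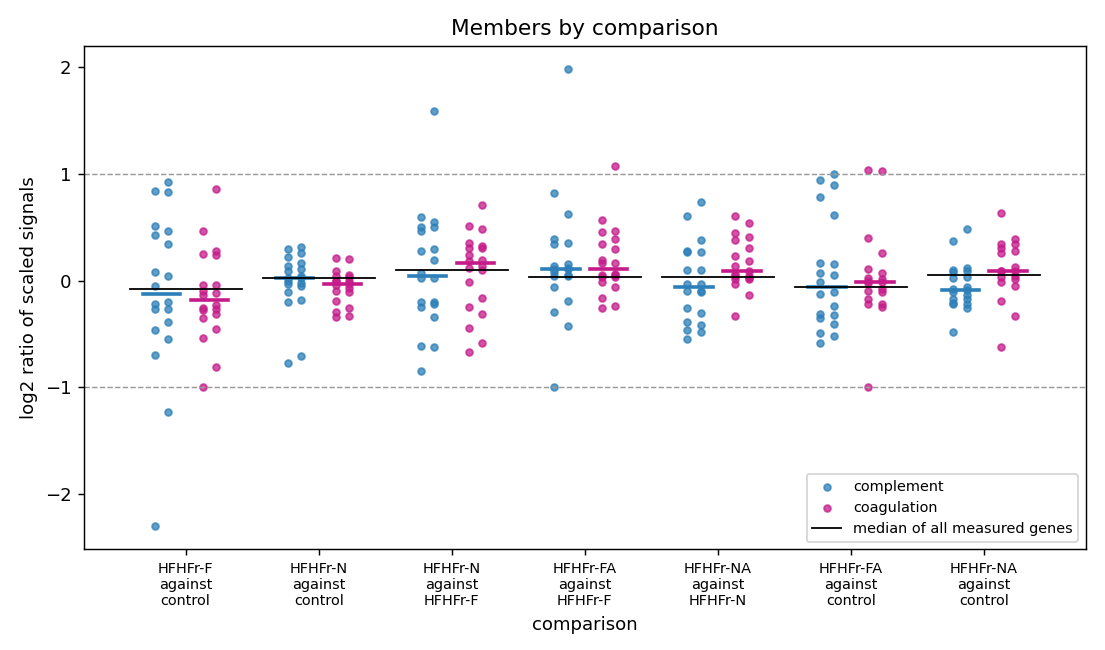
Log2 ratio of scaled signals (vertical axis) for each measured complement (blue) and coagulation member (magenta) in the 7 pairs of groups (horizontal axis), 1 array per group. Coloured bars are the medians of the members, black bars the median of all measured genes, and dashed lines mark 2-fold; the lowest point, at -2.30, and the high points at 1.59 and 1.98 are C8b.

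The medians of both sets stayed near that of all genes. In HFHFr-F against control the median log2 ratio was -0.13 for complement, -0.19 for coagulation and -0.08 for all genes. In HFHFr-N against control the medians were 0.02, -0.03 and 0.02, and in HFHFr-N against HFHFr-F they were 0.04, 0.16 and 0.10. In HFHFr-FA against HFHFr-F they were 0.11, 0.11 and 0.03, and in HFHFr-NA against HFHFr-N they were -0.06, 0.09 and 0.03. Against control, HFHFr-FA had -0.06, -0.01 and -0.06, and HFHFr-NA had -0.08, 0.09 and 0.05. The signs of these small medians depend on the scaling: with cyclic loess, complement had -0.07 in HFHFr-N against HFHFr-F and 0.12 in HFHFr-FA against control, where coagulation had 0.14.

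The direction of the members in HFHFr-F can also be read from the array on which each was lowest. Of the 19 coagulation members above background everywhere, 11 had their lowest signal on HFHFr-F, beside 31.5% of all such genes, and 0 had their highest there, beside 16.6%. Of the 20 complement members, 8 were lowest and 2 highest on HFHFr-F. HFHFr-NA held the highest signal of 10 of the 19 coagulation members, beside 27.6% of all such genes, and the lowest of none, beside 13.1%. Centring the arrays on their medians in place of the 75th percentile leaves 7 of 19 coagulation members lowest on HFHFr-F, beside 20.9% of all genes, so the count moves with the scaling. With cyclic loess it was 11, beside 23.3%, and with normexp and quantile normalization 10, beside 27.2%. Complement had 6 of 20 lowest there under each of these settings.

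**Figure D2:**
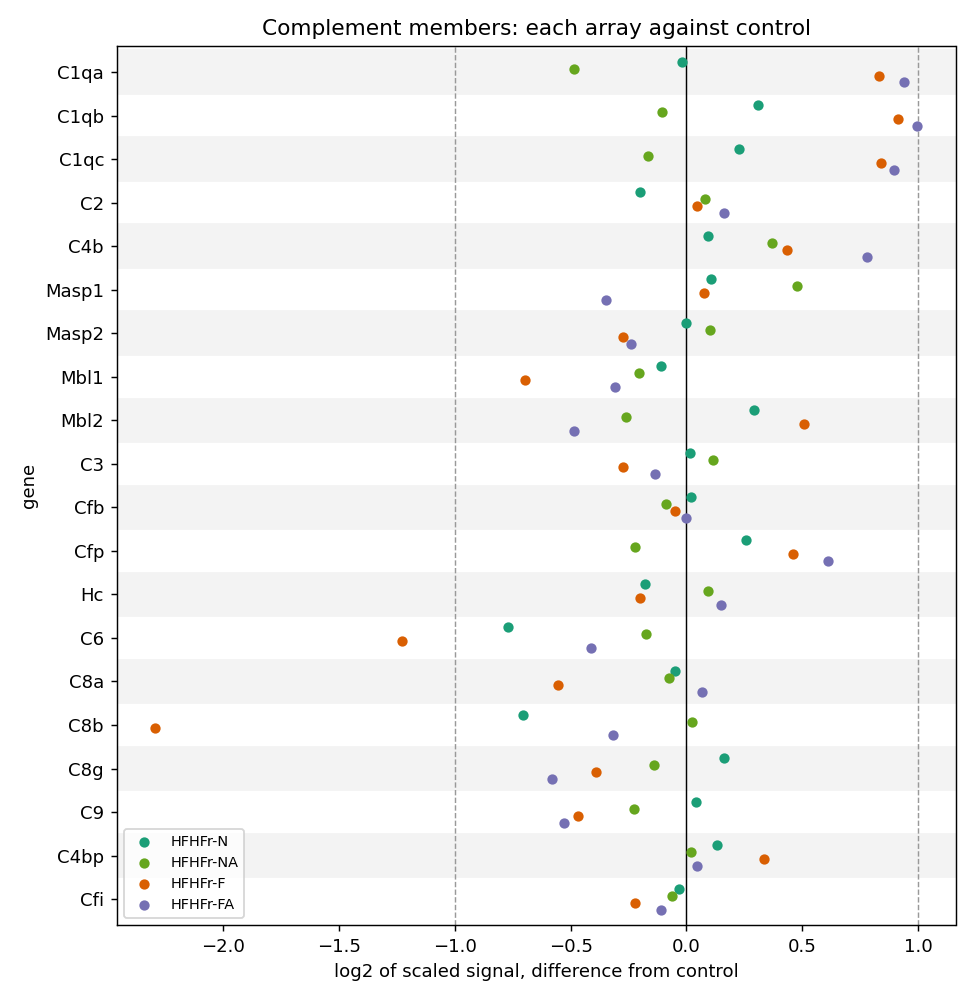
Difference in log2 scaled signal from control (horizontal axis) for the 20 complement members above background on all arrays (vertical axis, ordered by role), 1 point per array. Dashed lines mark 2-fold; C8b and C6 lie past it on HFHFr-F at -2.30 and -1.23, while the 3 C1q genes lie between 0.83 and 1.0 on HFHFr-F and HFHFr-FA.

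The terminal pathway held the largest differences in the 7 pairs. Its 6 members are Hc, which encodes C5, C6, the 3 chain genes C8a, C8b and C8g of C8, and C9, which forms the ring of the pore. All 6 were below control on HFHFr-F, beside 57.4% of all measured genes, with a median log2 ratio of -0.51. This count was 6 of 6 under each of the 6 other ways of processing tried, with medians from -0.51 to -0.40. Each of the 6 genes has 1 probe and was above background on every array. The mean of all probes and no detection filter therefore could not change the count. All 6 were higher on HFHFr-N than on HFHFr-F, beside 60.7% of genes, by 0.02 to 1.59, of which the smallest, that of Hc, turned below 0 under 3 alternatives, with median centring, cyclic loess and normexp with quantile normalization.

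C8b encodes the chain of C8 that docks onto the forming complex. Its scaled signal was 16.8 in control, 3.42 in HFHFr-F, 13.5 in HFHFr-FA, 10.3 in HFHFr-N and 17.1 in HFHFr-NA. HFHFr-F thus lay far below the other arrays, 4.93-fold below control, with HFHFr-N between it and the rest. The log2 ratio was -2.30 against control, 1.98 in HFHFr-FA against HFHFr-F and 1.59 in HFHFr-N against HFHFr-F. Each of the 3 stayed past 2-fold under all 6 other ways of processing. Of these, the mean of all probes and no detection filter repeat the main value for C8b, and the deposited ratios differ only by a constant per pair. Retinoic acid on normal diet went with a value 1.66-fold higher (log2 0.73), and HFHFr-NA differed from control by 0.02. The probe lies at chr4:104476999-104477058 of mm9, 11.5 kb from that of C8a. C8a had 77.9 in control, 53.1 in HFHFr-F, 81.5 in HFHFr-FA, 75.3 in HFHFr-N and 73.9 in HFHFr-NA, a log2 ratio of -0.55 in HFHFr-F against control. The neighbouring chain gene was therefore also lowest on HFHFr-F, by a smaller ratio, and its other 4 arrays lay close together.

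C6, the second protein to join the pore complex, had a scaled signal of 9.81 in control, 4.18 in HFHFr-F, 7.38 in HFHFr-FA, 5.75 in HFHFr-N and 8.69 in HFHFr-NA. HFHFr-F was lowest again and HFHFr-N next, so the order of the arrays was that of C8b except for HFHFr-NA and control. The ratio of HFHFr-F to control was -1.23, a 2.35-fold lower level. It stayed past 2-fold under the 6 alternatives, from -1.24 to -1.12, with the same limit on these settings as for C8b. HFHFr-N was lower than control by 0.77 on the log2 scale, a 1.71-fold difference, and HFHFr-FA and HFHFr-NA were higher than their diet partners by 0.82 and 0.60. The remaining terminal members differed less: in HFHFr-F against control the ratio was -0.20 for Hc, -0.39 for C8g and -0.46 for C9. C8g and C9 had their lowest signal on HFHFr-FA, at log2 ratios of -0.58 and -0.52 to control, so the higher value on HFHFr-FA than on HFHFr-F seen for C8b, C6, C8a and Hc was not shared by them.

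The 250 bases before the gene starts of C8b and C6, the members with the largest ratios to control, are shown to make their upstream sequence visible, from RefSeq's promoter table for GRCm38.p6. C8b is read from chr4:104766067-104766316 and C6 from chr15:4726960-4727209, both on the plus strand.
C8b: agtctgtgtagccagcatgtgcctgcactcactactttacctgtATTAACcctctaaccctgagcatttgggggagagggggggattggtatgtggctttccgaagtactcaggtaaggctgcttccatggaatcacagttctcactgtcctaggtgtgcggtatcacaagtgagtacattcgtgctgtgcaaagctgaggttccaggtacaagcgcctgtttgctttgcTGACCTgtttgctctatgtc
C6: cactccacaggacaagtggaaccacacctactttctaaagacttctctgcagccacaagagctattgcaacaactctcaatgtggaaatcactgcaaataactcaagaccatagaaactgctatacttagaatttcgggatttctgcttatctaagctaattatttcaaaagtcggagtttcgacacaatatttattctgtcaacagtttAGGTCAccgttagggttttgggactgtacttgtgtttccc
Capitals mark letters that match one of 5 motifs searched on both strands: GTTAAT, part of the site of HNF1; CAAAGTCCA, a site of HNF4; AGGTCA, the core read by many nuclear receptors; TTCNNNGAA, the STAT site; and TTGCNNAA, the C/EBP site. No match overlaps another in these 2 sequences. In C8b the match ATTAAC starts 206 bases and TGACCT 20 bases before the gene's start, and in C6 AGGTCA starts 40 bases before it. AGGTCA on either strand occurs in 14% of the 32851 windows of that length and in 10 of the 32 members matched in the table, and GTTAAT in 6.43% and in 9 of 32. These letters are a description of the sequence and were not tested for binding.

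Initiation of the classical and lectin pathways held the complement members that lay farthest above control on the HFHFr diet. C1qa, C1qb and C1qc encode the 3 chains of C1q, the protein that recognises bound antibody. C1qa had 3.79 in control, 6.75 in HFHFr-F, 7.28 in HFHFr-FA, 3.74 in HFHFr-N and 2.71 in HFHFr-NA. C1qb had 2.80, 5.28, 5.59, 3.47 and 2.60 in the same order of groups, and C1qc had 10, 17.9, 18.6, 11.7 and 8.91. Both arrays of mice still on the diet were above the other 3 for each chain, and HFHFr-NA was lowest for each. In HFHFr-F against control the log2 ratios were 0.83, 0.92 and 0.84, and in HFHFr-FA against control 0.94, 1.0 and 0.89. C1qb in HFHFr-FA against control lay just under the 2-fold line, and with cyclic loess scaling all 3 chains passed it, at 1.05, 1.1 and 1.01. With retinoic acid on the diet they were within 0.11 of HFHFr-F, while with it on normal diet they were lower by 0.39 to 0.46. Between their highest and lowest arrays, HFHFr-FA and HFHFr-NA, a pair not among the 7, they were 1.42, 1.1 and 1.06 apart on the log2 scale. Over all 10 possible pairs, 9 members were therefore at least 2-fold apart, these 3 and the 6 above. The 3 probes lie within 15.8 kb on chromosome 4.

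Macrophage markers were also higher on HFHFr-F and HFHFr-FA. Of 12 listed Kupffer cell and macrophage markers 11 were named on the array, and all 11 were above background on each of the 5 arrays. Their summed scaled signal was 111 in control, 213 in HFHFr-F, 198 in HFHFr-FA, 139.7 in HFHFr-N and 104 in HFHFr-NA. As log2 ratios to control, these sums were 0.94, 0.84, 0.33 and -0.09 in HFHFr-F, HFHFr-FA, HFHFr-N and HFHFr-NA, beside 0.85, 0.92, 0.18 and -0.23 for the summed C1q genes. The sums rest largely on Lyz2, Cd5l and Marco, the brightest of the list on HFHFr-F. The median ratio of the 11 to control was 0.53 on HFHFr-F, with 9 above 0, and 0.77 on HFHFr-FA, with all 11 above 0, so by the median HFHFr-FA was the higher of the 2 arrays. Single markers did not all share the direction on HFHFr-F: Cd68 had 1.37 and Marco 1.13 in HFHFr-F against control, but Cd163 had -0.58 and Timd4, a marker of resident Kupffer cells, -0.87. A list of 6 lipid-associated macrophage markers summed to 15.7 in control, 91.8 in HFHFr-F (2.55 above control on the log2 scale) and 23.1 in HFHFr-FA (0.56 above). Spp1 made up 60.4 of the 91.8, and the median ratio of the 6 to control, Gpnmb and Itgax at their lower bound, was 3.21 on HFHFr-F and 1.36 on HFHFr-FA, where Trem2 had 2.83 and Cd63 1.72. Of these 6 markers 4 were above background on every array, and Gpnmb was not above it in control. In bulk liver, fewer or more cells of a type and less or more RNA per cell cannot be told apart, and the part of macrophages in the C1q values was not tested.

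**Figure D3:**
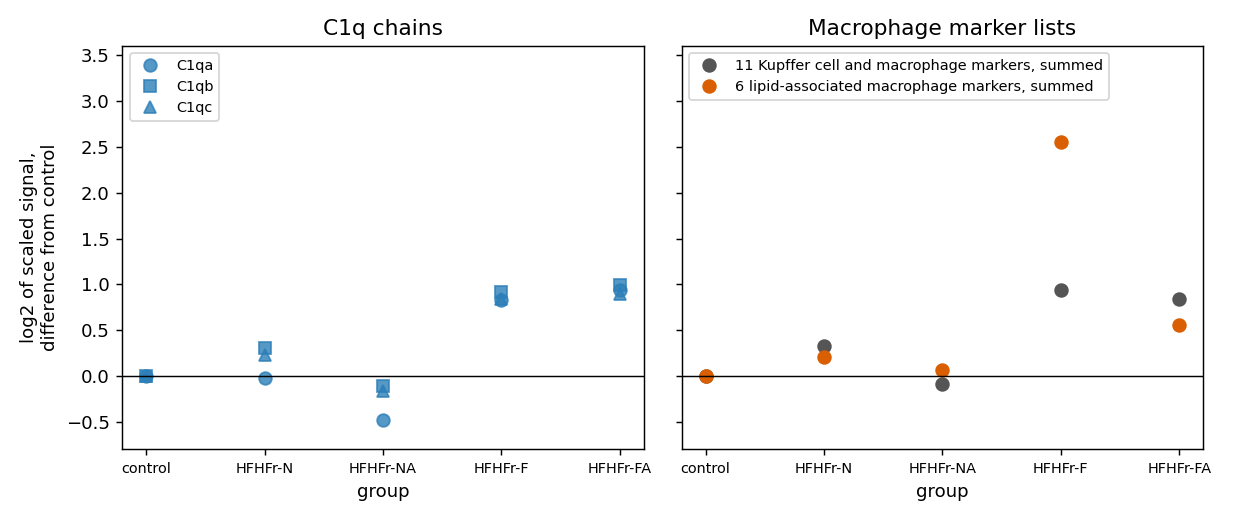
Difference in log2 scaled signal from control (vertical axis) by group (horizontal axis), 1 array per group, for the 3 C1q genes (left) and the sums of 11 Kupffer cell and macrophage markers and of 6 lipid-associated macrophage markers (right). On HFHFr-F and HFHFr-FA the C1q genes lie between 0.83 and 1.0 and the sum of 11 at 0.94 and 0.84, whereas the sum of 6 is at 2.55 on HFHFr-F and 0.56 on HFHFr-FA.

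The mannose-binding lectins, which bind sugars on microbes, ran in opposite directions on HFHFr-F. Mbl1 had 36.8 in control, 22.7 in HFHFr-F, 29.7 in HFHFr-FA, 34.1 in HFHFr-N and 31.9 in HFHFr-NA, lowest on HFHFr-F by 0.70 on the log2 scale. Mbl2 had 258, 367, 184, 316 and 215 in the same order, highest on HFHFr-F and lowest on HFHFr-FA. Its ratio was 0.51 in HFHFr-F against control and -1.0 in HFHFr-FA against HFHFr-F, just inside the 2-fold line, which it crossed under 3 of the 6 alternatives (to -1.10 with median centring). It was also lower with retinoic acid on normal diet, at -0.55. The lectin pathway protease gene Masp1 had 14.5 in control, 15.3 in HFHFr-F, 11.4 in HFHFr-FA, 15.6 in HFHFr-N and 20.2 in HFHFr-NA, but its probes disagreed, since in HFHFr-FA against control the chosen probe gave -0.35 and another 0.57. The same held for Masp2, another protease of the pathway, with -0.27 and 0.44 from 2 of its probes in HFHFr-F against control.

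C4b, which encodes complement C4 and is cleaved by both pathways, had a ratio of 0.43 in HFHFr-F and 0.78 in HFHFr-FA against control, and its lowest signal was in control. C4a, a near-identical copy with a probe of its own, had 0.54 and 1.05, and signal shared between the copies cannot be set aside. C2, the protease that pairs with C4, differed from control by 0.20 at most from its brighter probe. A dimmer probe gave 0.32 in HFHFr-FA and 0.21 in HFHFr-F against control. The probe for C1ra gave 27.6 in control, 21.6 in HFHFr-F, 29.6 in HFHFr-FA, 25.2 in HFHFr-N and 30.0 in HFHFr-NA, a ratio of -0.36 in HFHFr-F against control.

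The central and alternative pathway genes differed little. C3 was spotted 10 times on each array, and its scaled signal was 1372 ± 69.9 (SD over 10 spots) in control, 1137 ± 54.9 in HFHFr-F, 1250.1 ± 49.0 in HFHFr-FA, 1388 ± 71.8 in HFHFr-N and 1487 ± 81.5 in HFHFr-NA. Its highest spot on HFHFr-F, 1208, was below its lowest in control, 1292, so the 2 arrays did not overlap, although the ratio was only -0.27. This is the spread of spots on 1 array, not of mice. A dimmer second probe of C3 gave -1.03 in the same pair. Cfb, the protease of the alternative convertase, was within 0.10 on the log2 scale over the 5 arrays. Cfp encodes properdin, which stabilises that convertase and is made largely by white blood cells. It had 6.62 in control, 9.10 in HFHFr-F, 10.1 in HFHFr-FA, 7.92 in HFHFr-N and 5.68 in HFHFr-NA, the same order of arrays as for C1qb and C1qc, with ratios of 0.46 in HFHFr-F and 0.61 in HFHFr-FA against control.

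Of the 2 inhibitors, C4bp, which encodes the C4b-binding protein, had 269 in control, 339 in HFHFr-F, 278 in HFHFr-FA, 295 in HFHFr-N and 273 in HFHFr-NA. It and Mbl2 were the complement members whose highest signal was on HFHFr-F. Cfi, the protease that inactivates C3b and C4b, differed from control by -0.22 in HFHFr-F and by less elsewhere. C3ar1 and C5ar1 encode the receptors of C3a and C5a, which sit on white blood cells. Their scaled signals, up to 0.0820 and 0.0269, were not well above background, so no ratio is given.

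**Figure D4:**
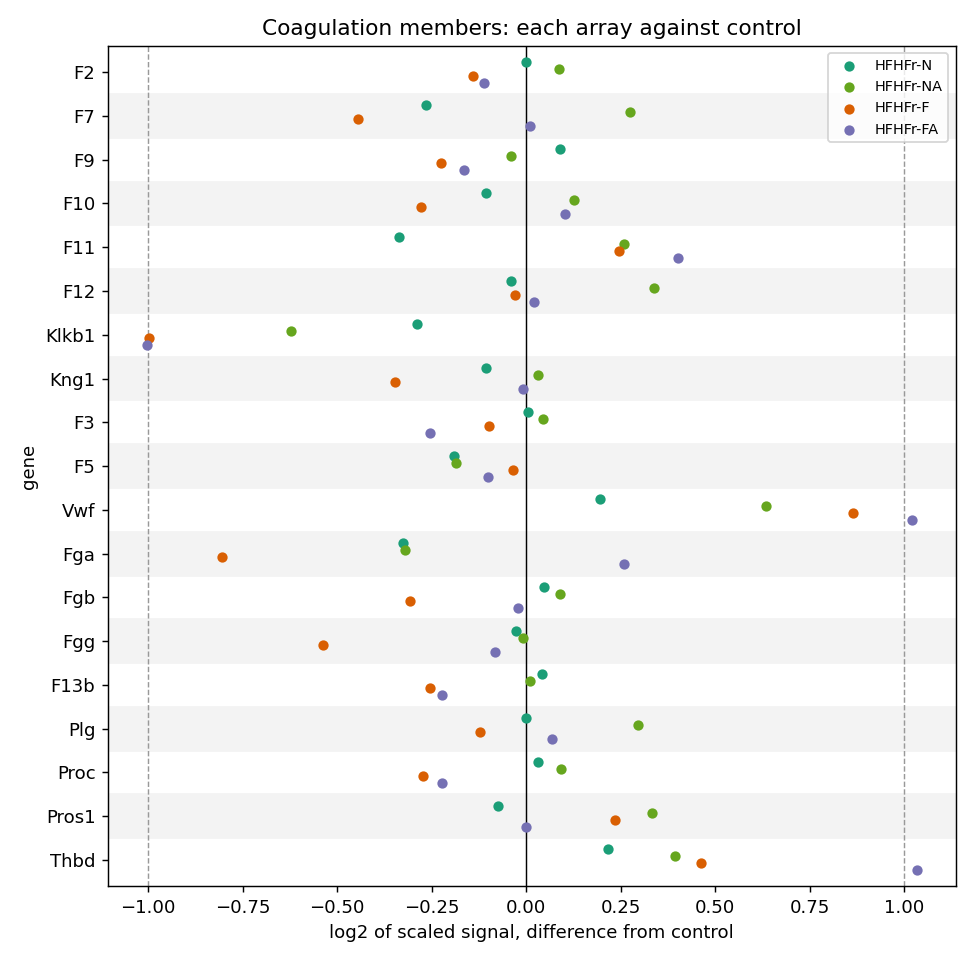
Difference in log2 scaled signal from control (horizontal axis) for the 19 coagulation members above background on all arrays (vertical axis, ordered by role), 1 point per array, with dashed lines at 2-fold. Klkb1 lies at -1.0 on HFHFr-F and HFHFr-FA, Vwf and Thbd at 1.02 and 1.03 on HFHFr-FA, and the 3 fibrinogen genes are lowest on HFHFr-F.

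Among coagulation members, Fga, the gene of the fibrinogen A chain, differed most between HFHFr-F and HFHFr-FA. The 3 fibrinogen chain genes lie side by side on chromosome 3, with probes 10.7 to 27.5 kb apart. Each was lowest on HFHFr-F, beside 31.5% of all genes above background on every array. Fga had 107 in control, 61.2 in HFHFr-F, 128 in HFHFr-FA, 85.3 in HFHFr-N and 85.7 in HFHFr-NA. Its ratio was -0.81 in HFHFr-F against control and 1.07 in HFHFr-FA against HFHFr-F, which stayed past 2-fold under 5 of 6 alternatives (0.97 with median centring). Fgg had 963, 664, 909, 945 and 957 in the same order, a ratio of -0.54 in HFHFr-F against control and 0.45 in HFHFr-FA against HFHFr-F. Fgb followed with -0.31 and 0.29 in these pairs. On normal diet the 3 chains were within 0.04 of each other with and without retinoic acid, and HFHFr-N and HFHFr-NA were both at -0.33 to control for Fga and within 0.09 of it for Fgb and Fgg. Thus all 3 chains were lower on HFHFr-F than in control, beside 57.4% of all measured genes, with the smallest ratio for Fgb. All 3 stayed lower under each of the 6 alternatives. Of these, the mean of all probes and no detection filter repeat the main values for the 3 chains, which have 1 probe each.

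Because the 3 chains are made in concert and lie together, their upstream 250 bases are printed with the same motifs in capitals (RefSeq, GRCm38.p6). Fga is from chr3:83025903-83026152 on the plus strand, Fgb from chr3:83049864-83050113 on the minus strand and Fgg from chr3:83007474-83007723 on the plus strand.
Fga: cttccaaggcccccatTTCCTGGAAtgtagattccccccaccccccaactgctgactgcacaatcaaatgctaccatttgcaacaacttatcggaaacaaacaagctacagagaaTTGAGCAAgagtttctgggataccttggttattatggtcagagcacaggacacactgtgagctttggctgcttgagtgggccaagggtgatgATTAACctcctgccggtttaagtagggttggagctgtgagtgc
Fgb: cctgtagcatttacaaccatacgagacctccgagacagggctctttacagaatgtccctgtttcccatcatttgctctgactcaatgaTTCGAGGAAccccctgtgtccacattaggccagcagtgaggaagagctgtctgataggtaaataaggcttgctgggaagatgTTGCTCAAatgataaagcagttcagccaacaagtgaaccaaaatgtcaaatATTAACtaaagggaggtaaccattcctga
Fgg: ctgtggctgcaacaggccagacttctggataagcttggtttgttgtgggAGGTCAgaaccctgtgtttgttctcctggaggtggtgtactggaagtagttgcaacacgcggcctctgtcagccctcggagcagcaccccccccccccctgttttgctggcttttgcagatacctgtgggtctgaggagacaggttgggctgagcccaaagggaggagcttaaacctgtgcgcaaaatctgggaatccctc
Fga and Fgb each hold ATTAAC, at 43 and 29 bases before the start, a STAT match, TTCCTGGAA at 234 and TTCGAGGAA at 162, and a C/EBP match, TTGAGCAA at 135 and TTGCTCAA at 80. None of these matches overlaps another. Fgg held none of those 3 motifs in this window and 1 AGGTCA at 201. TTCNNNGAA occurs in 7.02% of all windows and 6 of 32 members, and TTGCNNAA in 9.56% and 7 of 32, while CAAAGTCCA occurs in 0.384% and in 0 of 32. That these letters are missing from the window of Fgg says nothing about what binds the gene.

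The vitamin K dependent zymogens F2, F7, F9 and F10, which encode prothrombin and factors VII, IX and X, were all below control on HFHFr-F, by 0.14 to 0.45. Among all measured genes 57.4% were below control there, and 4 genes are too few to be read against that share. All 4 were also below it under 5 of the 6 alternatives (3 of 4 with normexp and quantile normalization). For F2, F7 and F10, with 1 probe each, the mean of all probes and no detection filter repeat the main values. F7 had 14.3 in control, 10.5 in HFHFr-F, 14.4 in HFHFr-FA, 11.9 in HFHFr-N and 17.3 in HFHFr-NA, lowest on HFHFr-F and highest on HFHFr-NA. It was higher with retinoic acid on both diets, by 0.46 and 0.54. F9 had 10.9, 9.33, 9.72, 11.6 and 10.6 in the same order, a spread of 0.32 on the log2 scale. F10, whose probe lies 20.5 kb from that of F7, had -0.28 in HFHFr-F against control and F2 had -0.14.

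The contact system, which starts coagulation on surfaces and releases bradykinin, had members going different ways. Klkb1 encodes plasma prekallikrein and had 13.8 in control, 6.91 in HFHFr-F, 6.88 in HFHFr-FA, 11.3 in HFHFr-N and 8.96 in HFHFr-NA. Both arrays on the diet were at the same low level, 1.99-fold and 2.0-fold below control, the first just inside and the second just past the 2-fold line. The second stayed past it under 4 of the 6 alternatives. Among these 4 were the mean of all probes and no detection filter, which repeat the main value for Klkb1. The second was -0.88 with cyclic loess and -0.84 with normexp and quantile normalization. F11 encodes factor XI, and its probe lies 30.9 kb from that of Klkb1. It had 9.61 in control, 11.4 in HFHFr-F, 12.7 in HFHFr-FA, 7.61 in HFHFr-N and 11.5 in HFHFr-NA, with a ratio of 0.25 in HFHFr-F against control where Klkb1 had -1.0. It was 0.60 higher in HFHFr-NA than in HFHFr-N. Kng1, the kininogen from which bradykinin is cut, had -0.35 in HFHFr-F against control from its brighter probe and -0.79 from another. F12, which encodes factor XII, was within 0.04 of control on HFHFr-F, HFHFr-FA and HFHFr-N and 0.34 above it on HFHFr-NA.

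**Figure D5:**
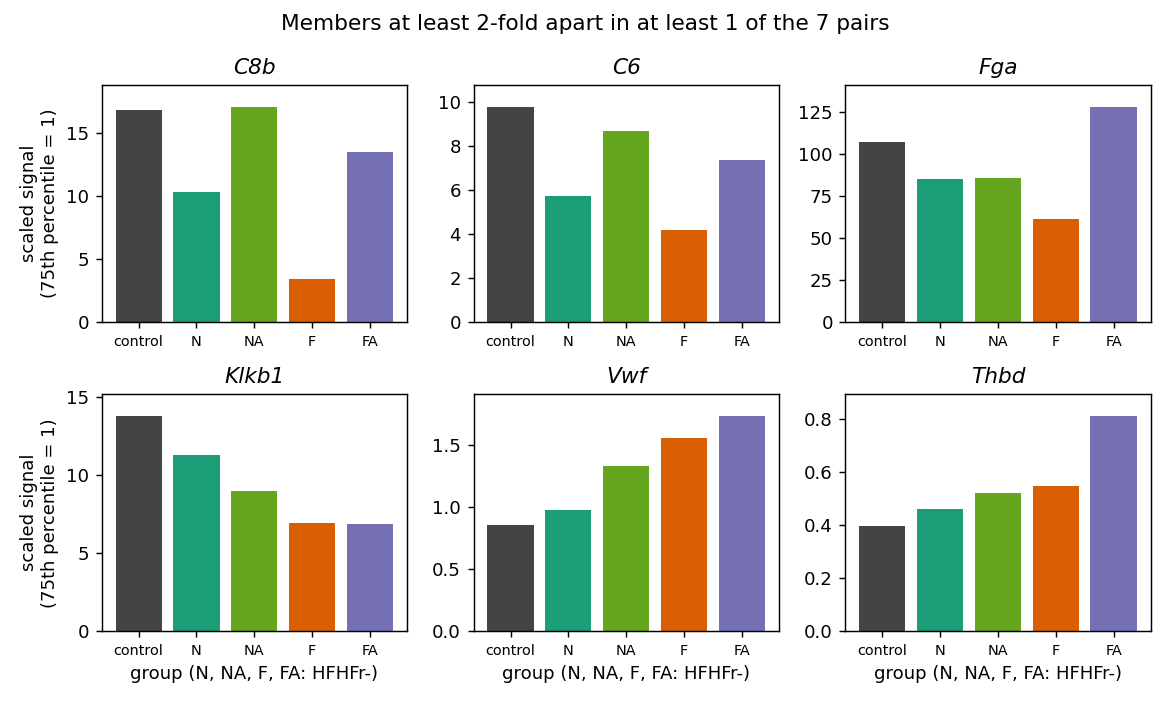
Scaled signal (vertical axis, 75th percentile of the array = 1, bars from 0) of the 6 members at least 2-fold apart in at least 1 of the 7 pairs of groups compared, 1 bar per array (horizontal axis). C8b, C6 and Fga are lowest on HFHFr-F, Klkb1 is low on both HFHFr-F and HFHFr-FA, and Vwf and Thbd are highest on HFHFr-FA.

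Vwf and Thbd, the members whose main source is endothelium, were highest on HFHFr-FA. Vwf encodes the adhesive protein that carries factor VIII, and had 0.857 in control, 1.56 in HFHFr-F, 1.74 in HFHFr-FA, 0.981 in HFHFr-N and 1.33 in HFHFr-NA. Control was lowest and the 2 arrays on the diet highest. Its ratio was 1.02 in HFHFr-FA and 0.86 in HFHFr-F, each against control, the former past 2-fold under 3 of the 6 alternatives, and a dimmer probe gave 1.04 and 1.24. Thbd encodes thrombomodulin, which turns thrombin into an activator of protein C. It had 0.397 in control, 0.547 in HFHFr-F, 0.813 in HFHFr-FA, 0.461 in HFHFr-N and 0.522 in HFHFr-NA, and its ratio of 1.03 in HFHFr-FA against control stayed past 2-fold under 4 of 6 alternatives. The 9 listed endothelial markers had a median ratio of 0.03 in HFHFr-F and 0.22 in HFHFr-FA against control. Summed, their scaled signal was 36.7 in control, 37.6 in HFHFr-FA and 26.5 in HFHFr-F, and 7 of the 9 were above background on all arrays. Clec4g alone made up 24.3, 23.0 and 14.8 of these sums. In HFHFr-F against control 5 of the 9 were above 0 and 4 below, from 0.93 for Lyve1 to -0.72 for Clec4g. Platelets and megakaryocytes also hold von Willebrand factor, and the 6 listed platelet markers summed to 1.23 in control, 2.18 in HFHFr-F and 1.54 in HFHFr-FA. Most of that difference was Pf4, at 1.44 and 0.83 against control, whereas Ppbp had -0.22 and -0.26. The median of the measured platelet markers was 0.51 in HFHFr-F (5 markers) and -0.07 in HFHFr-FA (4 markers) against control, with 3 and 2 of these at a bound. Their part in the Vwf values was not tested.

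F3, which encodes tissue factor, the starter of coagulation after injury, had 0.290 in control, 0.271 in HFHFr-F, 0.243 in HFHFr-FA, 0.291 in HFHFr-N and 0.299 in HFHFr-NA. Its 2 probes disagreed in HFHFr-NA against HFHFr-N, with 0.04 and -0.66. F5, the cofactor of factor X, varied by 0.19 over the 5 arrays. F13b, the carrier subunit of factor XIII, had 27.3 in control, 22.9 in HFHFr-F, 23.4 in HFHFr-FA, 28.1 in HFHFr-N and 27.5 in HFHFr-NA, so that both arrays on the diet were below the other 3. F13a1 had 0.105 on HFHFr-F, the 1 array where it was well above background, at least 1.21-fold higher than in control by the lowest signal measured there.

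Of the anticoagulant and fibrinolytic members, Pros1, which encodes the cofactor protein S, had 11.9 in control, 14 in HFHFr-F, 11.9 in HFHFr-FA, 11.3 in HFHFr-N and 15.0 in HFHFr-NA. It was 0.24 lower with retinoic acid on the diet and 0.41 higher with it on normal diet. Proc, which encodes protein C, had -0.27 and Plg, the zymogen of plasmin, -0.12 in HFHFr-F against control. Plg, Proc, Pros1 and Thbd were all above control on HFHFr-NA, by 0.09 to 0.39, beside 56.3% of all genes, though 1 of the 4 was below it with cyclic loess scaling.

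The 2 retinoic acid pairs share no array. Of the 19 coagulation members measured in both, 13 were above 0 in both and 1 below in both, and of the 20 complement members 7 were above and 4 below. The same sign thus held for 73.7% of coagulation members, 55.0% of complement members and 57.6% of 14084 genes. With cyclic loess scaling the coagulation share was 47.4%, so it moves with the scaling.

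Other genes of the 2 systems, taken from lists of related genes, included larger differences than those of the members. Of 27 further complement genes 23 were named on the array. In HFHFr-F against control 2 of 19 were at least 2-fold higher and 1 was lower, beside 5.44% and 3.23% of all measured genes. The higher were the integrin genes Itgb2 (log2 1.24) and Itgax (at least 3.82, not above background in control), which form a complement receptor of white blood cells. The lower was the ficolin gene Fcna (-1.16). Cfd encodes factor D, the protease of the alternative pathway that fat cells secrete, and had 28.2 in control, 31.0 in HFHFr-F, 64.3 in HFHFr-FA, 67.7 in HFHFr-N and 21.7 in HFHFr-NA. It was therefore high on 1 array of each diet, with log2 ratios of 1.05 in HFHFr-FA against HFHFr-F and -1.64 in HFHFr-NA against HFHFr-N. Fcna was higher on HFHFr-FA than on HFHFr-F, at 1.56.

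Of 29 further coagulation and fibrinolysis genes, all named on the array, 24 were measured in HFHFr-F against control. There 3 were at least 2-fold higher and 0 lower, beside 5.44% and 3.23% of all measured genes. The 3 included Anxa2, the annexin that gathers plasminogen on cell surfaces (2.25), and Plaur, the urokinase receptor (1.40). Anxa2 had 1.03 in control, 4.90 in HFHFr-F, 1.72 in HFHFr-FA, 1.58 in HFHFr-N and 0.770 in HFHFr-NA, so its single high array was HFHFr-F. Plaur stayed high on HFHFr-FA, at 1.5 against control, as did Procr, the endothelial protein C receptor, at 1.20. In HFHFr-NA against HFHFr-N 3 of 24 were at least 2-fold lower, including Tfpi2 (-1.32) and Anxa2 (-1.03), and 0 were higher. Among all genes 1.35% were lower and 1.53% higher there. Both lists of related genes are short and were chosen with earlier results known, so their counts are not read as above or below these shares.

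The 10 listed genes of transcription factors and cytokine receptors that act on liver secretory genes were measured on every array. Hnf4a, a main regulator of hepatocyte genes, had 15.1 in control, 8.61 in HFHFr-F, 12.1 in HFHFr-FA, 10.9 in HFHFr-N and 11 in HFHFr-NA, lowest on HFHFr-F at a ratio of -0.81. Il1r1, the interleukin 1 receptor, was the 1 gene of the list at least 2-fold higher there, at 1.0. Cebpd, a C/EBP factor of the acute phase, was higher with retinoic acid on both diets, by 0.68 and 0.91, and at 1.06 above control on HFHFr-FA. Of the hepatocyte markers, Cps1 and Tat were more than 2-fold lower in HFHFr-F against control, at -1.37 and -1.26, while albumin had -0.18. The 9 markers had a median of -0.24, with 7 below 0 and 2 above, Ttr at 0.37 and Trf at 0.07. Their part in the lower values of C8b, C6 and the fibrinogen genes was not tested.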

How the data were processed

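RNA pooled from 5 mice per group was hybridised in 1 colour to 5 Agilent 4x44K arrays, per the labels. Per the file headers, Feature Extraction 10.5.1.1 was used and probe positions are on mm9. The processed intensity was deposited after background subtraction within the array, with no scaling between arrays, while mean and background intensity are raw scans. The authors' value table holds a linear ratio, the processed intensity over 1 constant per array, which equals the 75th percentile of all its spots (control 166.9, HFHFr-F 214.7, HFHFr-FA 204.3, HFHFr-N 165.3 and HFHFr-NA 173.0, with 100.0% of spots within 0.1%). It is not centred and runs with the signal, so scale, centring and direction were settled from the files. Its column medians were 0.0700, 0.0675, 0.0721, 0.0738 and 0.0744 in that order.

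From the processed intensity, log2 was taken relative to each array's 75th percentile (spots other than controls) and averaged per probe, leaving out 60 to 96 spots flagged as outliers per array. A gene entered a pair when either array showed it well above background; the dim side was set to the higher of its own signal and the lowest signal well above background there, and the ratio is then a bound. With 1 array per group no test could be run, and the arrays' number limits the precision. A ratio of at least 2-fold counted as apart. Of the 58 member probes, 53 carried an accession that gives the same symbol in the RefSeq gene table and 5 no symbol there; 30 members had 1 probe and 12 several. Exon and untranslated region were not determined. Of 43 members, 32 matched RefSeq's GRCm38.p6 promoter table, and C1qa, C2, C4b, Masp1, Cfb, Cfi, Kng1, Vwf, Plg, Proc and Thbd did not. The members, lists and rules were chosen with earlier results of these data known. Values on every array are given for members at least 2-fold apart in at least 1 of the 7 pairs and for the 3 highest and 3 lowest of each set in HFHFr-F against control and in the 2 retinoic acid pairs, and ratios for the others. C8g, C9, Hnf4a, Timd4, Cd163, Ppbp, the other named macrophage markers, C4a, Procr, albumin and the C3 spots were added after their values were seen. So were Clec4g, Lyve1, Sox9, Lrat, Reln, Rgs5, Des, Ttr and Trf. Of the related lists, genes at least 2-fold apart are named in part, and some are not reported here. Alternatives were median centring, cyclic loess, normexp (offset 50) with quantile normalization, the mean of all probes, no detection filter and the deposited ratios (limma 3.58.1, R 4.3.3, pandas 2.3.3). The computation was tested on simulated data.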

Additional observations from a re-analysis of the deposited data

How the results depend on the processing

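The pooling of 5 mice and a single array per group limit what these values show, and no alternative addresses the spread between mice. No paired analysis was possible because each group has 1 array, and leaving out a replicate was not possible either. The ratios of the 6 members at least 2-fold apart in at least 1 of the 7 pairs kept their sign under the 6 alternatives, and those of C8b and C6 stayed past 2-fold. Not all alternatives could change them. For a member with 1 probe, above background on every array, the mean of all probes and no detection filter repeat the main value. The deposited ratios differ from the main setting only by a constant per pair. The largest shifts of the median of all genes were 0.11 in HFHFr-F against control and -0.11 in HFHFr-N against HFHFr-F with cyclic loess, -0.11 in the latter with median centring, and -0.15 to -0.22 for the 4 pairs against control with no detection filter.

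With cyclic loess, the complement median was -0.01 in HFHFr-F against control, -0.07 in HFHFr-N against HFHFr-F and 0.12 in HFHFr-FA against control, and with normexp and quantile normalization -0.00, -0.06 and 0.06. The coagulation median was 0.04 and 0.03 in HFHFr-N against HFHFr-F under these settings, and 0.14 under both in HFHFr-FA against control. In HFHFr-FA against control, 3 complement members were 2-fold apart with cyclic loess (the C1q genes) and 1 with normexp and quantile normalization (C1qa at 1.08), while the coagulation count went from 3 to 1 with median centring and 0 with normexp and quantile normalization. In HFHFr-FA against HFHFr-F, 2 complement members (C8b and Mbl2) were apart with median centring, with normexp and with the deposited ratios, and 0 coagulation members with median centring. With no detection filter, 1 coagulation member, F13a1, was apart in HFHFr-F, HFHFr-N and HFHFr-NA against control and was added to the 3 in HFHFr-FA against control (1.85), and 1 complement member, C3ar1, in HFHFr-NA against HFHFr-N at -1.16; both are dim. The deposited ratios put Klkb1 past 2-fold in HFHFr-F against control, the 1 coagulation member there. The members so moved lay near the 2-fold line or near background; the cause of the median shifts was not tested. Of the 157 ratios of the 23 members whose values on every array are given, 47 moved by more than the spot error with normexp and quantile normalization, 33 with cyclic loess, 22 with the mean of all probes, 2 with no detection filter and 0 with median centring or the deposited ratios. The last 2 settings shift all ratios of a pair by the same amount, so there a pair moves as a whole or not. With median centring HFHFr-N against HFHFr-F shifted by -0.11, close to its spot error of 0.107. No detection filter can change only ratios given as a bound.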

Other observations

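Markers of other liver and blood cells had these values beside the members. Of 5 neutrophil markers named on the array 1 was above background on every array, S100a9, a calcium-binding alarmin subunit. It had a scaled signal of 1.98 in control, 5.47 in HFHFr-F, 10.1 in HFHFr-FA, 3.34 in HFHFr-N and 6.06 in HFHFr-NA, so it was higher with retinoic acid on either diet, by 0.89 and 0.86 on the log2 scale. Of 6 stellate cell markers, Col1a1, the collagen I chain of scar tissue, had 0.209 in control, 3.64 in HFHFr-F, 1.11 in HFHFr-FA, 0.409 in HFHFr-N and 0.299 in HFHFr-NA. Pdgfrb, a receptor of activated stellate cells, had 1.52 in HFHFr-F and 1.39 in HFHFr-FA against control. The other stellate markers differed less: Lrat, Reln and Rgs5 had 0.30, 0.32 and 0.36 in HFHFr-F against control. Des was not above background on either of these arrays. The median of the measured stellate markers was 0.36 in HFHFr-F and 0.83 in HFHFr-FA against control. Of 4 cholangiocyte markers, Krt7 and Cldn7 were 1.19 and 1.14 above control on HFHFr-F. Krt19 was at least 1.30 above it, not being above background in control, while Sox9 had -0.11. The median of the 4 measured erythroid markers was 0.74 in HFHFr-F against control and -1.05 in HFHFr-FA against HFHFr-F, where both globin genes were more than 2-fold lower.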
